A study of Mus musculus with 8 samples.

Results

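The sites described here are replication initiation sites (ISs) that were found in both sets of hairpin-carrying CH12 cells and in neither set of parental cells. CH12 is a mouse B cell lymphoma line. Members were chosen by the deposited lists of ISs, 1 list per condition: a member is an autosomal IS of the Rif1KO_shLacZ list that shares at least 1 bp with an IS of the Rif1KO_shMcm6 list and none with an IS of the WT or Rif1KO lists. Of 98867 autosomal ISs in the Rif1KO_shLacZ list, 57486 met these conditions, which is 58.1%. They are called hairpin-only ISs below. The next largest combinations were 15115 ISs present in all 4 lists (15.3%), 11380 present in the Rif1KO_shLacZ list alone (11.5%), 9178 shared by both hairpin lists and Rif1KO but not WT (9.28%), and 3160 shared by both hairpin lists and WT but not Rif1KO (3.2%).

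Origins of replication are licensed by loading of the MCM helicase, of which MCM6 is a subunit, and only some licensed origins fire in a given cell. RIF1 is a chromatin protein that, together with protein phosphatase 1, opposes activation of loaded MCM helicases, and it is best known for setting the order in which domains replicate. Short nascent strand sequencing (SNS-seq) selects small, newly made DNA whose RNA primer protects it from lambda exonuclease, and the read density over an IS is taken as its frequency of use in the population. Origins mapped this way in mammalian cells often lie close to G-rich sequence that can fold into a G-quadruplex, and the exonuclease itself digests such folded DNA less readily.

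The series holds 4 groups of 2 SNS-seq libraries each: WT cells, cells in which Rif1 was knocked out (Rif1KO), and cells of the latter genotype infected with a lentivirus for a short hairpin RNA against LacZ (Rif1KO_shLacZ) or against Mcm6 (Rif1KO_shMcm6). All cells were cultured with IL4, CD40 and TGF beta stimulation. RIF1 was absent from 3 of the 4 groups, and WT cells carrying a hairpin were not analysed here. Infection and drug selection separated the hairpin groups from the parental groups. Reads inside ISs numbered 21071351 in Rif1KO_shLacZ and 23602750 in Rif1KO_shMcm6, against 3350255 in WT and 3724571 in Rif1KO, totals that also follow the number of ISs called and are not library depth. At the same 14617 ISs of all 4 lists, WT and Rif1KO had a median of 0.38 and 0.42 of the Rif1KO_shLacZ reads. Hairpin, selection, reads per IS and number of ISs called therefore cannot be told apart as the source of membership. The tables hold 1 pooled value per condition, so no spread between replicates was available, none of the comparisons below has a test, and the 95% Wilson intervals cover counting error only. Reads can include PCR copies and neighbouring ISs are not independent, so these intervals are narrower than the true uncertainty.

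Repeated sequence was common in hairpin-only ISs, and it is shown first because much of what follows sits beside it. All words of 16 bases in the members were counted on either strand, the word held by the most members was taken, and the count was repeated on the members left. This search was chosen after the sequences of single ISs had been seen. The first 5 words, each given with its strand as counted, were as follows.
word 1: agcattggaaatgtaa
word 2: gggagggagggaggga
word 3: atttacatttcaaatg
word 4: gtgggtgggtagggga
word 5: ggggacttttgggata
Word 1 occurred in 12680 hairpin-only ISs (22.1%, 21.7 to 22.4%), in 7.97% (7.55 to 8.41%) of ISs in all 4 lists and in 19.1% of ISs in the Rif1KO_shLacZ list alone. In the central 500 bp, word 1 was present in 15.9% of hairpin-only ISs (15.6 to 16.2%), in 15.7% of ISs in the Rif1KO_shLacZ list alone, in 3.68% of ISs in all 4 lists (3.39 to 3.99%) and in 1.01% of autosomal windows of 500 bp taken every 10 kb. The share was above that of ISs in all 4 lists on 19 of 19 autosomes, by 6.75 to 16 percentage points, and in 10 of 10 deciles of density. ISs called in Rif1KO but not WT lay between these sets at 9.81%, and ISs called in WT but not Rif1KO were at 4.97%. Over the whole IS these 2 sets had word 1 in 19.2% and 9.05%, the former close to the share of hairpin-only ISs. ISs called in Rif1KO but not WT were also wider, with a median of 604 bp against 498 bp. Of 47880 copies of word 1 on the autosomes, 18588 (38.8%) lay inside a Rif1KO_shLacZ IS and 12801 (26.7%) inside a hairpin-only IS. From background knowledge words 1, 4 and 5 read like the 3′ end of the mouse LINE-1 retrotransposon with its G-rich tract, but no repeat annotation was used here to check that. At least 1 of the 5 words was present in 43.3% of hairpin-only ISs, in 39.7% of ISs called in Rif1KO but not WT, in 36.3% of ISs in the Rif1KO_shLacZ list alone and in 22.3% of ISs in all 4 lists.

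Single ISs, named by a rule on density and on the ratio between the hairpin conditions, show what this sequence looks like. The quadruplex motif was defined as 4 runs of GGG parted by 1 to 7 bases, on either strand, and it is present in 8.36% of autosomal windows of 500 bp. Each stretch below is the centre of 1 hairpin-only IS, at most 300 bases of the mm9 plus strand, with this motif in capitals, and none covers an annotated UTR.
chr8:45150296-45150577: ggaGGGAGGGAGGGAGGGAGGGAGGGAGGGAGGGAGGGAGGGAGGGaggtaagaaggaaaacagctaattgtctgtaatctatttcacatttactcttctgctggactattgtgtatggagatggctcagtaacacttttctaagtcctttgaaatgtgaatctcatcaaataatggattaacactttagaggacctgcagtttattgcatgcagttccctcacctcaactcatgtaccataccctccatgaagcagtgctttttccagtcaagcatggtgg
chr5:12481128-12481427: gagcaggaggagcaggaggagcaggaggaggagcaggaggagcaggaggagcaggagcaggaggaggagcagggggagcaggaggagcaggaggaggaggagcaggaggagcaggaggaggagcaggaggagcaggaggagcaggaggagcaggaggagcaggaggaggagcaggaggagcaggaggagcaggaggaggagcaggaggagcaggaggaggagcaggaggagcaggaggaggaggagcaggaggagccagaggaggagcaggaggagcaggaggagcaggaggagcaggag
chr2:51410465-51410764: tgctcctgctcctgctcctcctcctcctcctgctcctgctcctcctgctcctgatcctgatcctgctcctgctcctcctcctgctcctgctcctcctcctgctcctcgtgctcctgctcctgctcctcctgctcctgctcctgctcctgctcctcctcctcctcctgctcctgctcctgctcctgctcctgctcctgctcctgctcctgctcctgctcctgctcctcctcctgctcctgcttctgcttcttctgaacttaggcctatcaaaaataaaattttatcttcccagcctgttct
chr15:80542310-80542609: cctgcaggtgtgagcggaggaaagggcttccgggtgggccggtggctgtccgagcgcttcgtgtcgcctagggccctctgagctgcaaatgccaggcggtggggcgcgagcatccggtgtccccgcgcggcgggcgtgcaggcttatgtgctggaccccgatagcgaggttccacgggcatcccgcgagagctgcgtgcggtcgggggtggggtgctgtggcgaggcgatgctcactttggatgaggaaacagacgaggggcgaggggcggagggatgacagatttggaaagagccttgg
The IS on chromosome 8 was among the 4 least dense hairpin-only ISs that had a merged IS to themselves and began with a run of GGGA units, which is word 2, with 43 bases inside the motif stretch. The ISs on chromosomes 5 and 2 were among the 4 with the highest ratio of Rif1KO_shMcm6 over Rif1KO_shLacZ, and their central 300 bases held GGA 67 times and its reverse complement TCC 48 times with no quadruplex motif. The IS on chromosome 15 had the lowest ratio of all named ISs, and its 300 bases were GC-rich (67.7%) with 29 CG dinucleotides.

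Word 2 is a run of GGGA, and it occurred in 6.7% of hairpin-only ISs in the central 500 bp, in 3.41% of ISs in all 4 lists and in 0.462% of the genome windows. Word 3 was present in 6.32% of hairpin-only ISs and 5% of ISs in all 4 lists against 0.752% of genome windows. Its share was higher in ISs called in Rif1KO but not WT (7.71%) and in ISs in the Rif1KO_shLacZ list alone (6.83%). Word 4, itself G-rich, was present in 8.91% of hairpin-only ISs, 1.67% of ISs in all 4 lists and 0.636% of windows. Word 5 was present in 7.73%, 2.48% and 0.599% of these. ISs in the Rif1KO_shLacZ list alone had word 4 in 8.51% and word 5 in 9.14%, close to or above hairpin-only ISs. Over the whole IS, word 4 was present in 11.5% of hairpin-only ISs and in 11.7% of ISs called in Rif1KO but not WT. The words were chosen for their frequency in hairpin-only ISs, which favours these ISs in every such comparison, so the shares are descriptions. Only uniquely aligned reads were kept by the authors, so what was counted at a repeat came from positions whose reads could be placed, and the part of mapping in these shares was not tested.

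**Figure D1:**
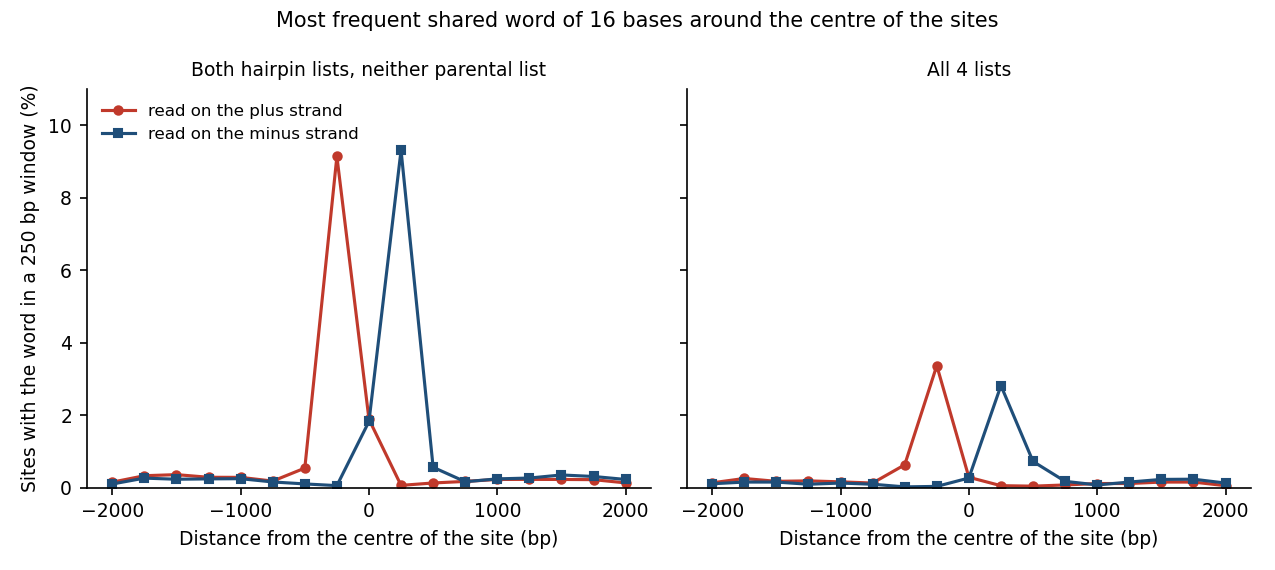
Share of ISs (%) with word 1 in consecutive windows of 250 bp against the distance of the window from the centre of the IS (bp), for hairpin-only ISs (left) and ISs in all 4 lists (right). Circles are copies read on the plus strand and squares copies read on the minus strand. In hairpin-only ISs the plus-strand copies peak at 9.14% to the left of the centre and the minus-strand copies at 9.31% to the right.

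Word 1 had a fixed side. Within 500 bp of the centre of hairpin-only ISs, 6567 of 6666 copies read on the plus strand lay to the left of the centre (98.5%), with a median offset of -198 bp. Of 6726 copies read on the minus strand, 6639 lay to the right (98.7%), with a median offset of 200 bp. The plot of word 1 around the centre shows these peaks as mirror images, and from 750 bp outward copies on either strand were present in 0.106 to 0.364% of ISs per window. ISs in all 4 lists had the same sides with lower peaks, 3.37% on the left and 2.82% on the right.

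The quadruplex motif showed the same arrangement. In the window centred 250 bp to the left of the centre, 36.7% of hairpin-only ISs had the motif with its G runs on the plus strand and 1.63% with its G runs on the minus strand. In the window 250 bp to the right these shares were 1.69% and 37.1%. ISs in all 4 lists had 34.9% and 3.27% on the left and 3.38% and 34.7% on the right. In the 43641 hairpin-only ISs with no exact copy of word 1 within 1 kb, a split that leaves near copies and the other words in place, the left window held plus-strand motifs in 34.1% and minus-strand motifs in 1.81%. Further out, at 1000 bp from the centre, 2.32 to 2.6% of hairpin-only ISs had the motif on a given strand.

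**Figure D2:**
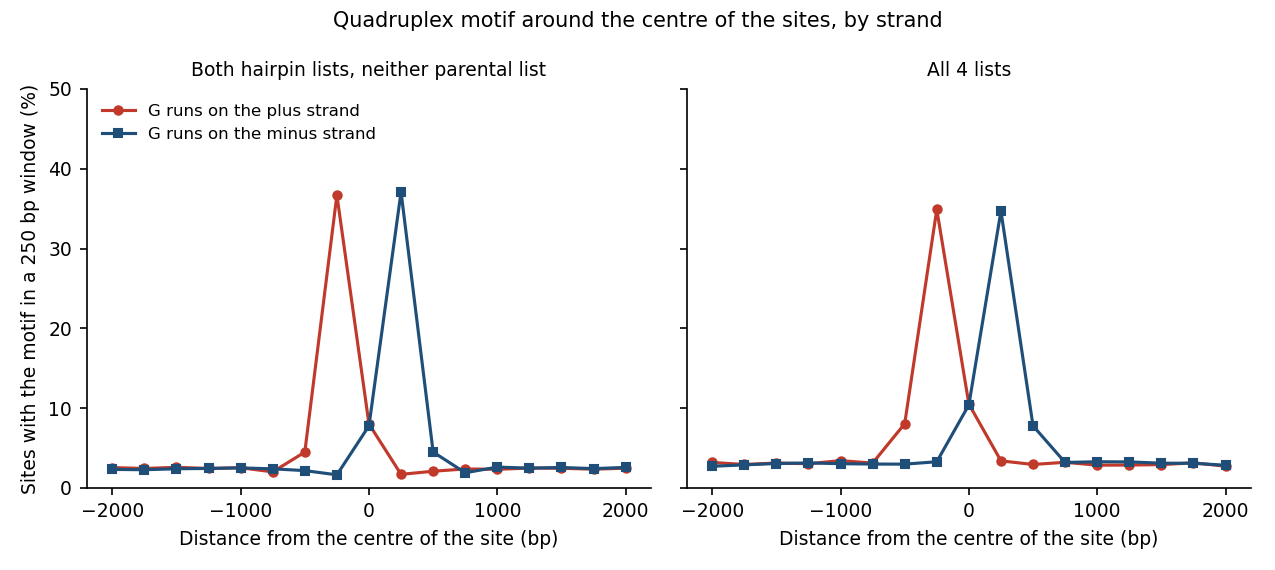
Share of ISs (%) with the quadruplex motif in consecutive windows of 250 bp against the distance of the window from the centre of the IS (bp), for hairpin-only ISs (left) and ISs in all 4 lists (right). Circles are motifs with G runs on the plus strand and squares motifs with G runs on the minus strand. Both sets have the plus-strand motif to the left and the minus-strand motif to the right, at 36.7% and 37.1% in hairpin-only ISs.

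In the central 500 bp the motif was present in 35555 hairpin-only ISs (61.8%, 61.5 to 62.2%), in 54.7% (53.9 to 55.5%) of ISs in all 4 lists, in 59.7% of ISs in the Rif1KO_shLacZ list alone and in 8.36% of autosomal windows of 500 bp. The order of the first 2 sets was the same on 19 of 19 autosomes, but it depended on what was compared. Over the whole IS the shares were 79.2% and 84%, the opposite order on 19 of 19 autosomes, and ISs in all 4 lists were wider. Where list ISs had to overlap by a reciprocal 50%, the 500 bp shares were 59.1% and 60.9%. Within deciles of density, hairpin-only ISs had the lower share in 7 of 10. Among ISs without word 1 in the central 500 bp the shares were 58.4% and 54%, and among ISs with it 80% and 71.2%. Both sets thus carried the motif at several times the share of the genome windows, and no stable order between them was found.

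Density is given as log2 of reads per 1000000 reads in ISs (RPM). The calls in the lists came from the same reads, so these values describe the members and test nothing. Hairpin-only ISs had a median Rif1KO_shLacZ density of 2.79 (log2 RPM, quartiles 2.47 and 3.15, range 0.92 to 6.33), which stood for 146 reads (quartiles 117 and 187). ISs in all 4 lists had a median of 3.55 (quartiles 3.22 and 3.90) and 247 reads, and ISs in the Rif1KO_shLacZ list alone 2.33 and 106 reads. In Rif1KO_shMcm6 cells the medians of hairpin-only ISs and ISs in all 4 lists were 2.80 and 3.46. The distributions overlapped: 8.63% of hairpin-only ISs were at or above the median of ISs in all 4 lists, and 6.73% of the latter were at or below the median of the former.

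Calling these ISs low in use depends on the scale. In reads per IS they stood between ISs in all 4 lists and those in the Rif1KO_shLacZ list alone. Hairpin-only ISs had a median width of 498 bp, against 670 bp for ISs in all 4 lists and 425 bp for those in the Rif1KO_shLacZ list alone. Per kb of merged IS, the median Rif1KO_shLacZ density was 11.4 RPM, against 14.9 RPM and 12 RPM. ISs called in Rif1KO but not WT had 13 RPM and those called in WT but not Rif1KO 13.3 RPM. Per kb of merged IS, hairpin-only ISs thus had the lowest median of the 5 sets in Rif1KO_shLacZ. A merged IS spans overlapping ISs of both hairpin lists, whereas ISs in the Rif1KO_shLacZ list alone overlap no Rif1KO_shMcm6 IS. The part of this added width in the order was not tested. In Rif1KO_shMcm6, hairpin-only ISs had 11.2 RPM per kb of merged IS, above the 10.2 RPM of ISs in the Rif1KO_shLacZ list alone. Together they held 43.9% of the autosomal reads in ISs in Rif1KO_shLacZ cells and 43.9% in Rif1KO_shMcm6 cells.

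Across deciles of density, hairpin-only ISs made up 52.3% of the least dense decile, where 43.8% were in the Rif1KO_shLacZ list alone, and 76.2% of density decile 3. Their share then dropped at every step to 24.5% of the densest decile, in which 51.4% of ISs were in all 4 lists. Even so, 2390 hairpin-only ISs stood in the densest decile.

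**Figure D3:**
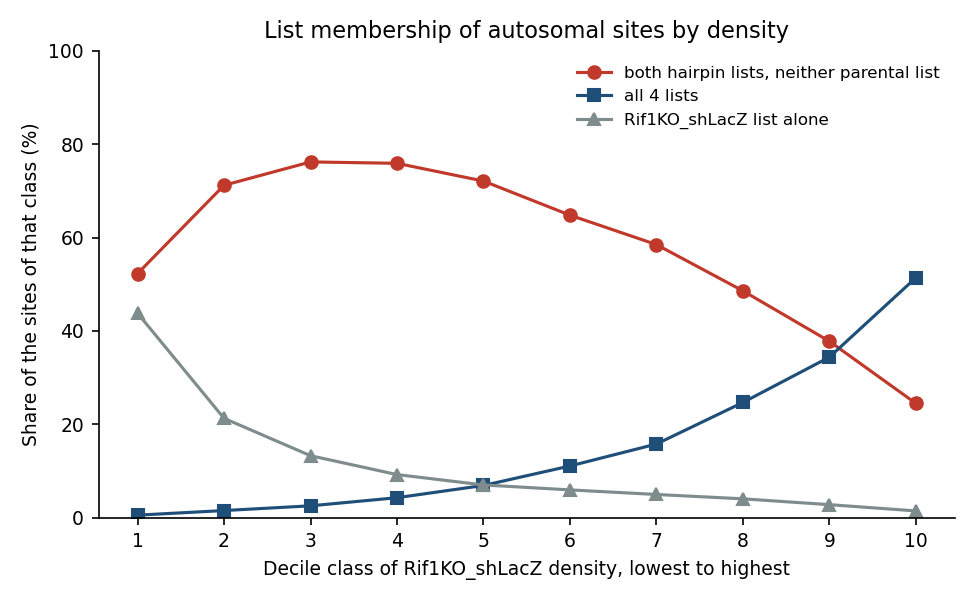
Share of autosomal Rif1KO_shLacZ ISs (%) in 3 list combinations against decile class of Rif1KO_shLacZ density, from lowest (1) to highest (10). Circles are hairpin-only ISs, squares ISs in all 4 lists and triangles ISs in the Rif1KO_shLacZ list alone, and hairpin-only ISs are the largest of the 3 in deciles 1 to 9.

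Reads of hairpin-only ISs were also scaled by the ratio of parental to hairpin reads at shared ISs. At 14617 ISs of all 4 lists that matched 1 to 1, the median ratio of parental to Rif1KO_shLacZ reads was 0.38 for WT (quartiles 0.314 and 0.463) and 0.42 for Rif1KO (0.344 and 0.508). These ISs were called in parental cells, so the ratios are not those of library depth. Scaled by them, hairpin-only ISs would have had a median of 55.5 reads in WT and 61.3 in Rif1KO. ISs actually called there had medians of 84 and 85 reads and a percentile 5 of 53 in both. Thus 44.8% of hairpin-only ISs scaled below that percentile in WT and 33.5% in Rif1KO. At or above the median of called ISs were 7962 (13.9%) in WT and 10953 (19.1%) in Rif1KO. The parental reads at hairpin-only ISs themselves were not analysed here, so whether those ISs were used in parental cells was not tested.

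Hairpin-only ISs lay further from genes than ISs in all 4 lists. Gene positions were not used to choose them. Promoter ISs were those whose nearest edge lay no more than 1 kb from the annotated start (TSS) of any protein-coding transcript. This held for 1878 hairpin-only ISs (3.27%, 3.12 to 3.42%) and for 7.36% (6.95 to 7.78%) of ISs in all 4 lists. Intergenic ISs made up 64.1% (63.7 to 64.5%) and 55.6% (54.8 to 56.4%), and introns held 28.9% and 30.2%. The median distance to the nearest TSS was 58452 bp and 32587 bp. Over all Rif1KO_shLacZ ISs the promoter share was 4.2% and the intergenic share 62.3%, and in ISs called in Rif1KO but not WT the intergenic share was 66.3% and the median distance to a TSS 65916 bp, further still than in hairpin-only ISs. Within 500 kb of the centre were a median of 6 protein-coding genes (quartiles 2 and 12) and 9 genes (quartiles 5 and 16), and no such gene was found around 7.7% and 3.74%, and around 6.81% of all Rif1KO_shLacZ ISs. On each of 19 autosomes the promoter share was lower in hairpin-only ISs than in ISs in all 4 lists, with differences of -9.18 to -0.698 percentage points, and the intergenic share was higher, with differences of 1.66 to 17.4 points. The promoter share was also lower in 10 of 10 deciles of density and the intergenic share higher in 9 of 10, the exception being the least dense decile, which held 58 ISs of all 4 lists.

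**Figure D4:**
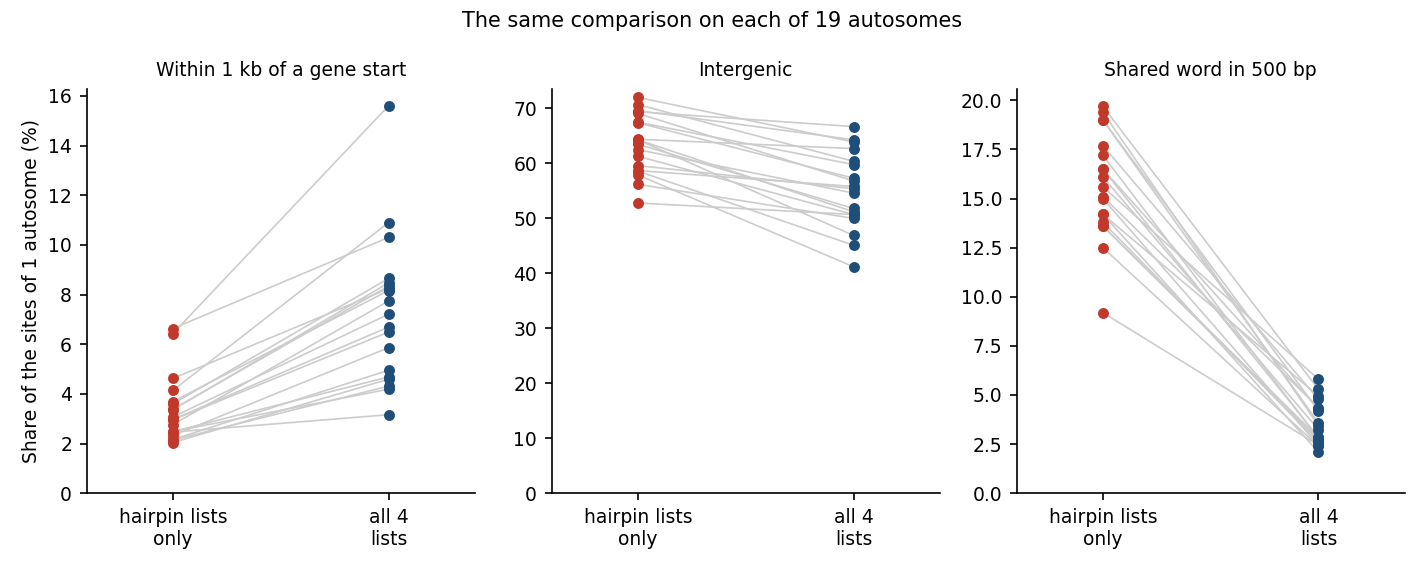
Share (%) of ISs within 1 kb of a TSS (left), intergenic (middle) and with word 1 in the central 500 bp (right), with 1 point per autosome for hairpin-only ISs and ISs in all 4 lists and a grey line joining the points of the same autosome. On 19 of 19 autosomes the hairpin-only ISs have the lower promoter share and the higher intergenic share and share with word 1.

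Presence in the WT list went with the promoter share. ISs of both hairpin lists that were called in WT but not Rif1KO had a promoter share of 7.12% (6.27 to 8.07%), close to that of ISs in all 4 lists. ISs called in Rif1KO but not WT had 3.31% (2.97 to 3.7%), close to that of hairpin-only ISs. The second share was below the first on 16 of 19 autosomes.

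Base composition also differed between the sets. The central 500 bp had a median GC content of 43.8% in hairpin-only ISs, 43.2% in ISs called in Rif1KO but not WT, 45% in ISs in the Rif1KO_shLacZ list alone, 47.4% in ISs in all 4 lists and 41.8% in genome windows, and it was lower than in ISs in all 4 lists on 19 of 19 autosomes and in 10 of 10 deciles of density. A run of at least 8 A or 8 T was present in 36.2% of hairpin-only ISs, in 33.2% both of ISs called in Rif1KO but not WT and of ISs in the Rif1KO_shLacZ list alone, in 23.1% of ISs in all 4 lists and in 19.5% of genome windows. Of hairpin-only ISs with word 1, 77% had such a run, against 28.5% of those without. A run of CA or TG of 8 bases was present in 11.3%, 11.6% and 14%.

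Hairpin-only ISs with word 1 in the central 500 bp were less often at promoters than those without. Of these 9167 ISs, 0.567% were promoter ISs and 74.2% intergenic, against 3.78% and 62.2% of the 48319 without it. They had a median of 3 protein-coding genes within 500 kb, against 7, a GC content of 39.6%, against 44.8%, and a density of 2.66 (log2 RPM), against 2.82. Without word 1, the promoter and intergenic shares of ISs in all 4 lists were 7.6% and 54.9%, so the sets stood apart there as well. With word 1, 0.899% of ISs in all 4 lists and 0.561% of ISs in the Rif1KO_shLacZ list alone were promoter ISs.

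Hairpin-only ISs were spread over the genome. Their share of Rif1KO_shLacZ ISs ran from 47.9% on chromosome 16 to 66.8% on chromosome 12, and their number from 18.5 per Mb on chromosomes 7 and 16 to 28.2 per Mb on chromosome 15. Of 4762 windows of 500 kb with any Rif1KO_shLacZ IS, 4729 held at least 1, with a median of 12. The nearest IS in the Rif1KO_shLacZ list was another hairpin-only IS for 71.7% and an IS found in a parental list for 24.1%, and for ISs in all 4 lists it was a hairpin-only IS for 47.5%.

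The nearest parental IS lay a median of 33216 bp away (quartiles 7592 and 89245 bp). Within 10 kb of a parental IS were 31.4% of hairpin-only ISs (31 to 31.8%), against 20.3% (19.5 to 21%) of ISs in the Rif1KO_shLacZ list alone, and this order was the same on 19 of 19 autosomes. Of ISs in all 4 lists, 63.7% had another parental IS within 10 kb, at a median distance of 7703 bp. At 1 kb the shares were 3.16% and 3.01%, with overlapping intervals, at 5 kb 16.8% and 11.6%, at 20 kb 41.8% and 38.5%, and at 50 kb 60.3% and 59.9%. Hairpin-only ISs and those of the Rif1KO_shLacZ list alone thus stood apart between 5 and 20 kb and were nearly equal at 1 kb and from 50 kb. The authors kept only ISs that lay in clusters, and the part of that filter in these distances was not tested. At the edge of the rule, 8 members had a parental IS no more than 50 bp away, the nearest at 7 bp, with a median density of 2.77 (log2 RPM), and 5 ISs were left out by an overlap of at most 50 bp, the smallest 22 bp, with a median density of 2.59. Another 2 members shared 50 bp or less with their Rif1KO_shMcm6 IS.

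Some windows held hairpin-only ISs and no parental IS at all. Of 3181 windows of 500 kb with at least 10 hairpin-only ISs, 186 had none from either parental list, with 2737 hairpin-only ISs between them. These windows had a median of 1 protein-coding gene, against 3 in all 3181. The fullest were chr15:28500001-29000000 (mm9) with 28 and no gene, chr15:35000001-35500000 with 26 and the genes Stk3, a kinase of the Hippo pathway, Osr2 and Vps13b, and chr7:16000001-16500000 with 26 and the Obox homeobox genes and Crx. Overall the most hairpin-only ISs in 1 window were 40, in the gene-free chr12:95500001-96000000, where 2 ISs of all 4 lists and 8 parental ISs also lay.

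Among genes, counts followed length. Of 21418 protein-coding genes on the autosomes, 9.93% of those under 10 kb held a hairpin-only IS between 1 kb before the start and the end of the gene, 66.6% of those of 50 to 200 kb and 99.5% of those of 500 kb or more. Per 100 kb of gene, the number of hairpin-only ISs was 2.12 to 2.19 in the length classes from 50 kb, 2.13 at 10 to 50 kb and 2.94 under 10 kb. ISs in all 4 lists dropped from 1.58 per 100 kb in the shortest class to 0.385 in the longest. Hairpin-only ISs were thus nearly evenly dense in genes from 10 kb upward, while ISs in all 4 lists were sparser the longer the gene.

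The gene models with the most hairpin-only ISs were Gm20388 with 115, a model of 4434.9 kb on chromosome 8 that spans other genes, Cntnap2 with 68, Dlg2 with 61, Fgfr2 and Ptprd with 60 each and Nrxn3 with 48. Cntnap2 (chr6:45010060-47251368, mm9), which encodes a neuronal cell adhesion protein, had 82 Rif1KO_shLacZ ISs in all and none in all 4 lists, and its 68 hairpin-only ISs had a median density of 2.69 (log2 RPM). Dlg2, a synaptic scaffold gene (chr7:97650473-99595513), had 97, of which 6 were in all 4 lists. Ptprd, a receptor tyrosine phosphatase gene (chr4:75587142-77857865), had 76 and none in all 4 lists, with a median density of 2.59. Nrxn3, a neurexin gene (chr12:89961320-91573375), had 59 and 2 in all 4 lists. Fgfr2, a growth factor receptor gene, is annotated here over 3009.1 kb, and 15 of its 101 ISs were in all 4 lists.

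Genes with hairpin-only ISs and no parental IS were led by Spock3, which had 20 (chr8:65429806-65835900), Thsd7a with 18 (chr6:12261610-12699410), and Dip2c and Slc25a21 with 17 each. Spock3 encodes an extracellular matrix proteoglycan and Slc25a21 a mitochondrial carrier. All 20 Rif1KO_shLacZ ISs of Spock3 were hairpin-only, with a median density of 2.61 and a median log2 fold change of 0.08, and all 17 of Slc25a21, at 2.77 and -0.04. These 4 genes were 392.4 to 484.8 kb long.

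Lists of genes were described by counts, and the rate over all Rif1KO_shLacZ ISs, 58.1% hairpin-only, is the level to read them against. In 20 large neuronal genes linked to fragile sites, 648 of 962 ISs were hairpin-only (67.4%, 64.3 to 70.2%), and each of the 20 held at least 1. In vomeronasal receptor genes, which encode pheromone receptors of the nose, it was 62 of 82 (75.6%, 65.3 to 83.6%), and Vmn2r7 held 11. Olfactory receptor genes had 26 of 43 (60.5%, 45.6 to 73.6%) and ribosomal protein genes 10 of 15 (66.7%, 41.7 to 84.8%), both with intervals that included the rate. Below it, with intervals that did not include it, were Zfp zinc finger genes with 162 of 317 (51.1%, 45.6 to 56.6%) and Hox genes, the homeobox genes of body patterning, with 17 of 42 (40.5%, 27 to 55.5%).

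Of 24 B cell transcription factor genes with an annotation, 10 held a hairpin-only IS, and these were 30 of the 63 ISs in the list (47.6%, 35.8 to 59.7%). Runx1 had 6 of its 10 ISs hairpin-only, with a median density of 3.73. Ebf1, which directs early B cell commitment, had 5 of 11, beside 5 in all 4 lists. Of 21 B cell receptor and activation genes, 11 held one, 26 of 49 ISs (53.1%, 39.4 to 66.3%). Plcg2, the phospholipase downstream of the receptor, had 8 of 12, and all 3 ISs of the kinase gene Blk were hairpin-only with no parental IS in the gene. Of 27 replication licensing and firing genes, 5 held one, 8 of 17 ISs (47.1%, 26.2 to 69%). Rif1 itself had 3 of 4, with a median density of 4.05, and Gins1, a subunit of the GINS complex, 2 of 2. All 3 intervals included 58.1%. The clustered protocadherin genes had 8 of 14 and the replication-dependent histone genes 1 of 2.

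The change after MCM6 depletion is given as the log2 of Rif1KO_shMcm6 over Rif1KO_shLacZ. Since membership required a call in both conditions, the rule used this contrast, and nothing is read from these counts. At a threshold of 1.5-fold, 896 hairpin-only ISs were higher (1.56%, 1.46 to 1.66%) and 348 lower (0.605%, 0.545 to 0.672%), where 4.82% of all 127312 autosomal merged ISs were higher and 1.49% lower. Over all autosomal Rif1KO_shLacZ ISs 1.19% were higher and 1.87% lower. ISs in all 4 lists were higher in 0.701% and lower in 1.14%, and ISs of the Rif1KO_shLacZ list alone were lower in 9.09%. The median of hairpin-only ISs was -0.02 (quartiles -0.18 and 0.14, SD 0.25 across ISs) and that of ISs in all 4 lists -0.11, with 46.3% and 31.6% of ISs above 0. Scaled to reads in ISs, the values show shares of the pool and not absolute use.

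**Figure D5:**
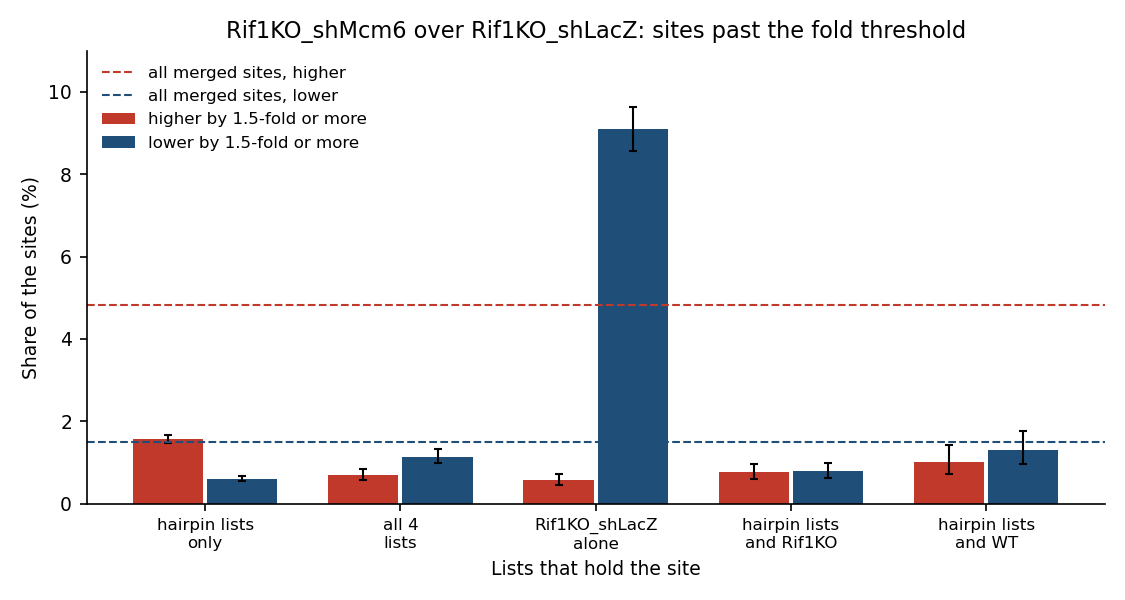
Share of ISs (%) with a log2 ratio of Rif1KO_shMcm6 over Rif1KO_shLacZ past 1.5-fold, in 5 list combinations. Bars show ISs higher or lower, error bars are 95% Wilson intervals for counting error, and dashed lines are the shares over all merged autosomal ISs (4.82% higher and 1.49% lower). The bars of hairpin-only ISs stand at 1.56% and 0.605%.

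The ratio within hairpin-only ISs is also given by surroundings, as a description only, since the same rule shaped these values. ISs with no protein-coding gene within 500 kb had a median of 0.06, and the lower call in 0.0904%, whereas ISs with 20 or more genes had -0.07 and 1.14%. Across the 57486 members Spearman's rho of the ratio was -0.171 with the number of genes, -0.0975 with GC content and -0.179 with width, given as descriptions since ISs share libraries. ISs with a GC content over 60% in the central 500 bp were higher in 6.61% and lower in 2.67% of 787 ISs. ISs of 35% GC or less were higher in 0.537%, and none of them was lower. Those with the quadruplex motif in the central 500 bp were higher in 1.99% (1.85 to 2.14%) and those without in 0.866% (0.752 to 0.998%), while 0.599% and 0.616% were lower. ISs with the motif were also less dense (median 2.68 against 2.98 log2 RPM) and narrower (449 against 608 bp). The higher call itself went from 1.9% in the quintile of lowest density to 1.03% in the highest. Over all merged autosomal ISs 4.82% were higher and 1.49% lower, a rate not split here by motif or GC content.

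The ratio by repeated word is a description of the same kind. Hairpin-only ISs with word 1 had a median of -0.05, were higher in 0.436% (0.321 to 0.594%) and lower in 0.48%, against -0.02, 1.77% (1.66 to 1.89%) and 0.629% for those without. The words most common among the 896 higher ISs, found by the same counting, held only G and A on 1 strand and C and T on the other.
word H1: cctccctccctccctc
word H2: ctccctctccctctcc
word H3: aggaggaggaggagga
Word H2 was present in 98 of the 896 and in 789 hairpin-only ISs in all, of which 12.4% were higher, and the median ratio of the 789 was 0.14. Word H3, a run of AGG units, was present in 63 of the 896 and in 884 in all, of which 7.13% were higher, with a median of 0.02. Word H1 is a shift of word 2 on the other strand and was present in 118 of the 896, with a median of -0.02 over its 4575 ISs. These words were chosen on the ratio, so their counts are descriptions. The share higher among all merged autosomal ISs, 4.82%, is not split here by these words.

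Density and width rose together across hairpin-only ISs, with a rho of 0.765, and the densities in both hairpin conditions had a rho of 0.873. Between the quintile classes of lowest and highest density the median width went from 355 to 714 bp, the promoter share from 1.94% to 4.91%, and the share with the quadruplex motif in the central 500 bp from 78.2% to 44.8%. In the whole IS, the motif share instead rose from 70.4% to 87.7%. Promoter ISs among the members had a median density of 2.94 and intergenic ones 2.77. Within 1 kb of a TSS of 1342 protein-coding genes lay a hairpin-only IS and no parental IS, and at another 103 genes both were present.

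Named ISs mark the ends of the range, all in mm9 coordinates. The densest hairpin-only IS that had a merged IS to itself was chr11:3060944-3062080, in an intron of Sfi1, a centrosome gene, with 1062 reads in Rif1KO_shLacZ and 1004 in Rif1KO_shMcm6. The IS chr2:171330513-171332056, between genes, had 862 and 847 reads, and its central 300 bases were a tandem repeat. The IS chr8:45150296-45150577, whose sequence is shown above, was among the 4 least dense of that kind with 61 and 67 reads, 229821 bp from the nearest parental IS. A further dense IS with a merged IS to itself, in an intron of 4930452B06Rik, had 861 and 742 reads and a log2 ratio of -0.38 (counting SE 0.07). Its central 300 bases were a tandem repeat as well. Peaks were called without an input, so the part of repeated sequence in these densities was not tested. The other 3 described here had log2 ratios of -0.24 (counting SE 0.06), -0.19 (0.07) and -0.03 (0.26). The ISs chosen by density and not described here had -0.01 (0.06), 0.13 (0.31), 0.46 (0.25) and 0.06 (0.25). These ISs are examples from the ends of the range, and no pattern of the ratio with density is read from them.

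The highest ratio, 2.14 (counting SE 0.12), was that of chr5:12480998-12481558 in an intron of Sema3d, a semaphorin gene, with 170 reads in Rif1KO_shLacZ and 842 in Rif1KO_shMcm6. It was followed by an intergenic IS at chr5:119243842-119244269, nearest to the TSS of Med13l, with 177 and 751 reads and a ratio of 1.92. The IS at chr2:51410418-51410812, with 144 and 552 reads, had a ratio of 1.77. Its shown centre and that of the first IS are rich in repeated GGA or TCC units. The lowest ratio, -1.09 (counting SE 0.14), was that of chr15:80542064-80542856, 39786 bp from the TSS of Fam83f, with 322 and 170 reads. The IS at chr15:73015335-73015788 at the promoter of Eif2c2, an Argonaute gene, with 206 and 125 reads and a GC content of 75.2%, had a ratio of -0.88. With 1 pooled value per condition, none of these ratios has a replicate check.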

How the data were processed

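SNS-seq was performed on 8 libraries, 2 per group. Per the study's methods, the authors trimmed reads with Trim Galore 0.6.4 and cutadapt 2.6 and aligned them to mm9 with Bowtie 1.2.3, keeping unique alignments. They called peaks per library without an input, took the consensus peaks of both libraries of a condition with bedtools, and kept ISs that lay in clusters. The deposited lists give, besides positions, the number of library peaks behind each IS. The deposited tables hold, for the merged ISs of 2 conditions, log2 of reads per 1000000 reads (RPM), 1 pooled value per condition. A further deposited column holds the authors' own fold-change class and was not used.

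Here, ISs were compared by shared bases (at least 1 bp) with custom code (Python 3.11.15, pandas 2.3.3, numpy 2.4.6, scipy 1.17.1), tested on simulated data. Sequence was read from mm9 with pysam 0.24.0, and genes were those of GENCODE vM1 on the same assembly. Log2 values were turned back into reads, which came out whole in 100% of cases (tolerance 0.01), and gave 3350255 to 23602750 reads in ISs per condition. Shares carry 95% Wilson intervals. A log2 fold change was the difference of the deposited values, called at 1.5-fold. With 1 value per condition no test was run. Read numbers set the precision at each IS, and no IS list can show an IS too weak to be called. Members, gene lists and alternatives were chosen with earlier results of these data known, and the repeated words after values were seen. Genes named were the 6 with the most members, the 4 with the most among genes without a parental IS, and the 2 with the most in each list. ISs named were, among members with a merged IS to themselves, the 4 densest and 4 least dense and, among those whose mean density over both hairpin conditions reached the median of members, the 4 highest and 4 lowest in fold change, and only some of them are reported here. Other genes are named where they lie in or nearest to a named IS or window. Alternatives were another overlap, threshold, pseudocount, window, annotation and motif.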

Additional observations from a re-analysis of the deposited data

Results flagged for a closer look

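Chromosome X was left out of the sets above. Of 1742 Rif1KO_shLacZ ISs on chromosome X, 1169 met the same list conditions, which is 67.1% (95% Wilson interval 64.9 to 69.3%) against 58.1% on the autosomes. ISs in all 4 lists made up 2.41% there (1.79 to 3.24%) and 15.3% on the autosomes. The difference is a signal outside the main measurement, it was not tested, and the copy number of this chromosome in CH12 cells was not used here.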

How the results depend on the processing

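The number of hairpin-only ISs, 57486 when any shared base counted, was 57557 when list ISs had to share a reciprocal 50% of their length and 55669 when none could have a parental IS within 1 kb. The reciprocal rule gave a median density of 2.81 (log2 RPM), a median log2 fold change of -0.04 and a promoter share of 3.43%. The share past the threshold in either direction, 2.16% at 1.5-fold, was 0.124% at 2-fold, 18.1% at a log2 threshold of 0.32, 1.18% on log2(RPM + 1), where the median log2 fold change was -0.02, and 2.34% for ISs at or above the lower quartile of density of all merged ISs. The promoter share was 2.23% with 500 bp and 6.01% with 2500 bp around the TSS, and the intergenic share 61.7% with all annotated genes. The median GC content was 44% over the whole IS and 43.8% in 500 bp. The motif share, 79.2% over the whole IS, was 87.7% with loops of up to 12 bases and 61.8% in 500 bp. The share near a parental IS, 31.4% at 10 kb, was 16.8% at 5 kb, 41.8% at 20 kb and 29.9% without chromosomes 10, 15 and 16. Without the ISs that held word 1 in 500 bp, an alternative chosen after seeing the data, the density was 2.82, the promoter share 3.78%, the intergenic share 62.2%, the GC content 45.3%, the motif share 76.7%, the share past 1.5-fold 2.4% and the share within 10 kb 32.3%. Each alternative counted fewer or other ISs or used another limit, window or scale, and the source of these moves was not tested. No paired analysis was possible because values of single libraries were not analysed here, only the pooled value of each condition, and leaving out each replicate was not run for the same reason.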

Other observations

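Hairpin-only ISs in Hox genes had a median density of 3.19 (log2 RPM) and a median log2 fold change of 0.18 over 17 ISs, with Hoxb3 at 3.98 and 0.14 and Hoxa3 at 3.43 and 0.20. Those in ribosomal protein genes had 2.67 and -0.23 over 10 ISs, with Rps16 at -0.28 and Rpl24 at -0.23. These lists were picked here as the highest and lowest medians of 11 lists, the other 9 lay between -0.09 and 0.05, and none of the ISs in either passed 1.5-fold, where 2.16% of all hairpin-only ISs did. By genic position, hairpin-only ISs at exons had a median log2 fold change of -0.09, at promoters -0.04, in introns -0.03 and between genes -0.01.

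Words of 16 bases were also counted among the 348 hairpin-only ISs that were lower in Rif1KO_shMcm6. Word 1 led there as well, in 55 of 348 (15.8%), below its share of 22.1% among all hairpin-only ISs. A run of GGGGA units was present in 28 of 348 (8.05%) and in 2.02% of all hairpin-only ISs. It was chosen on the lower ISs, so this is a description, and of the 1159 hairpin-only ISs with it 2.42% were lower, with a median log2 fold change of -0.04.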
